A study of Mus musculus with 54 samples.

Results

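The Hox genes of the mouse encode homeodomain transcription factors and lie in 4 chromosomal clusters. The 39 genes whose symbol is Hoxa, Hoxb, Hoxc or Hoxd followed by a number were taken from the 25229 gene symbols of the files, leaving out antisense transcripts and microRNA genes. The Hoxa cluster held 11 of them (GRCm38 chromosome 6, 52155590 to 52260880, minus strand), the Hoxb cluster 10 (chromosome 11, 96194316 to 96368256, plus strand), the Hoxc cluster 9 (chromosome 15, 102921103 to 103036852, plus strand) and the Hoxd cluster 9 (chromosome 2, 74668310 to 74765142, plus strand). The choice used no measured value.

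Within a cluster the genes are numbered by paralog group, from 1 at the 3′ end to 13 at the 5′ end, and genes with the same number in different clusters descend from 1 ancestral gene. In the embryo, low-numbered genes are switched on early and reach far forward, whereas high-numbered genes come on later and only toward the tail, a correspondence called collinearity. In the gut, Hox genes are known chiefly from the mesoderm that forms the muscle and connective tissue layers, where they help assign regional identity, and the caudal factors Cdx1 and Cdx2, which are expressed in the intestinal epithelium, bind and activate several of them in the embryo.

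The libraries came from polyA RNA of 3 sections of the small intestine, which in order from the stomach are the duodenum, the jejunum and the ileum. Each section was taken from lactating females at day 7 of lactation (LF), from virgin females of the same age (VF) and from virgin males (VM), with 6 libraries in each of the 9 groups. All animals received a standard diet, RM3 while breeding and RM1 for maintenance and the experiment; the labels give no strain, genotype or age in weeks, and no transgene. They do not say that the libraries of a group came from separate animals, so p-values measure the spread between libraries.

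Of the 54 libraries, 52 were used. Lactating duodenum 3 and lactating jejunum 3 were left out because earlier results of these data had found a liver profile in the first and a duodenum-like profile in the second; their Hox values stand apart too. In lactating jejunum 3, Hoxc8 was at 0.043 CPM (reads scaled to the library total) against 1.46 to 4.72 in the other 5 lactating jejunum libraries, and Hoxa4 was at 5.16 against 0.61 to 1.81. Lactating duodenum 3 had Hoxb4 at 2.75 against 5.88 to 12.2 and no read of Hoxb8. The 52 libraries held 18479722 to 27604041 reads assigned to genes, of which 546 to 8406 fell on Hox genes. Section markers followed the labels: Pdx1, a duodenal regulator, was at 17.9 to 86.1 CPM in the duodenum and at most 0.277 elsewhere, and Fabp6, an ileal bile acid carrier, was at 1173 to 6423 CPM in the ileum and at most 13.6 elsewhere. Pancreatic enzyme transcripts were summed at 7.99 to 15310 CPM in duodenal libraries and at most 50.8 in the other sections; their part in the duodenal Hox values was not tested. CPM below are on library sizes adjusted by trimmed means (TMM).

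In the ileum the paralogs of group 9 ranged from 0.301 CPM per kilobase of exon for Hoxa9 to 22.0 for Hoxb9. The homeoboxes of Hoxb9 and Hoxc9 are shown because reads can be split between paralogs where their sequences are alike. The homeobox is the stretch of 180 coding bases for the 60 residues that bind DNA; capitals mark codons 48 to 53 of it, which encode a conserved part of the recognition helix, and the bases are read from the gene's strand.
Hoxb9, GRCm38 chr11:96274659-96274838, plus strand: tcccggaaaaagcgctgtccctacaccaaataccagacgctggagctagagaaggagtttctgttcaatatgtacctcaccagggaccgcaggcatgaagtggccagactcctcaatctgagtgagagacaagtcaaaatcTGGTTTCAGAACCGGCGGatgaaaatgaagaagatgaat
Hoxc9, GRCm38 chr15:102983930-102984109, plus strand: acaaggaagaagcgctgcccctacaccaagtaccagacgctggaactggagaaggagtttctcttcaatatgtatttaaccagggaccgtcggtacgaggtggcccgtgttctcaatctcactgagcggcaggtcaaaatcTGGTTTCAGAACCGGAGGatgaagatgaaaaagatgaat
The pair was identical at 83.9% of bases and 56 of 60 encoded residues, and the longest run without a difference was 24 bases. The files give no read length, so whether short reads inside such a run were assigned to the right paralog cannot be read from them. Sequence outside the homeobox was not compared between paralogs. The exons of Hoxd3 and Hoxd4 share 388 bases on the same strand, and those of Hoxc5 and Hoxc10 share 166. The part of these shared bases in the counts was not tested.

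Promoters are shown for Hoxb8 and Hoxa7, which rose from the duodenum to the jejunum, and for Hoxa2, which was not called there and fell from the jejunum to the ileum. Each is the 250 bases before the annotated start in RefSeq (GRCm38.p6), written along the gene's strand. Capitals mark TTTATG and TTTACG, the core letters bound by caudal factors, searched on both strands.
Hoxb8, GRCm38.p6 chr11:96281655-96281904, plus strand: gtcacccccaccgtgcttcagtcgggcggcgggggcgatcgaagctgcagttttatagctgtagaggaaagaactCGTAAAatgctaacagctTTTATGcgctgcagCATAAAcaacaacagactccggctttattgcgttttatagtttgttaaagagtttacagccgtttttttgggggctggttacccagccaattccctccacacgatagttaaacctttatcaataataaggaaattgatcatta
Hoxa7, GRCm38.p6 chr6:52218574-52218823, minus strand: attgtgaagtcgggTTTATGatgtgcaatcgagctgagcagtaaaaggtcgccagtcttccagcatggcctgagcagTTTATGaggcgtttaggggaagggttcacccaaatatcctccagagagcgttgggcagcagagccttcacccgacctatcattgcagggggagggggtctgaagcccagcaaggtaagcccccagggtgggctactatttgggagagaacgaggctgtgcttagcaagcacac
Hoxa2, GRCm38.p6 chr6:52164832-52165081, minus strand: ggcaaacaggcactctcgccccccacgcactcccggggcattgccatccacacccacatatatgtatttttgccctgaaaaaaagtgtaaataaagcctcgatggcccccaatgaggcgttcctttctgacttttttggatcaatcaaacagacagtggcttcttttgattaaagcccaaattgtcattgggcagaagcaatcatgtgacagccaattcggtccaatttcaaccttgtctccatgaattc
The Hoxb8 window held 3 matches, the Hoxa7 window 2 and the Hoxa2 window 0. TTTATG occurred in 10.8% and TTTACG in 2.6% of the 32851 RefSeq promoter windows. Of the 22 Hox symbols with a window, 5 held TTTATG (Hoxa7, Hoxb8, Hoxd3, Hoxd4 and Hoxd11) and 1 held TTTACG (Hoxb8). At the first step in virgin females Hoxd4, whose window held TTTATG, also rose. Hoxa6 and Hoxd8 rose too, and their windows held neither. Hoxd3 held TTTATG and was not called, and Hoxd11 was not tested. A match describes letters and is not a measured binding site.

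Along the gut, transcripts of Hox genes became more abundant toward the ileum and came from higher paralog numbers. The summed level of all 39 genes averaged 45.4 CPM over 17 duodenum libraries, 62.1 CPM over 17 jejunum libraries and 286.8 CPM over 18 ileum libraries. A gene counted as detected where the median of a group was at least 10 reads: by that measure the duodenum had 19 genes detected in at least 1 group, the jejunum 20 and the ileum 27. Of the 39 genes, 28 passed the filter on low counts, 8 had reads but did not pass, and Hoxc11, Hoxc12 and Hoxd12 had no read in the 52 libraries. The 28 passed partly because they are high in 1 section, so counts among them describe them and are not counts over all members.

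**Figure D1:**
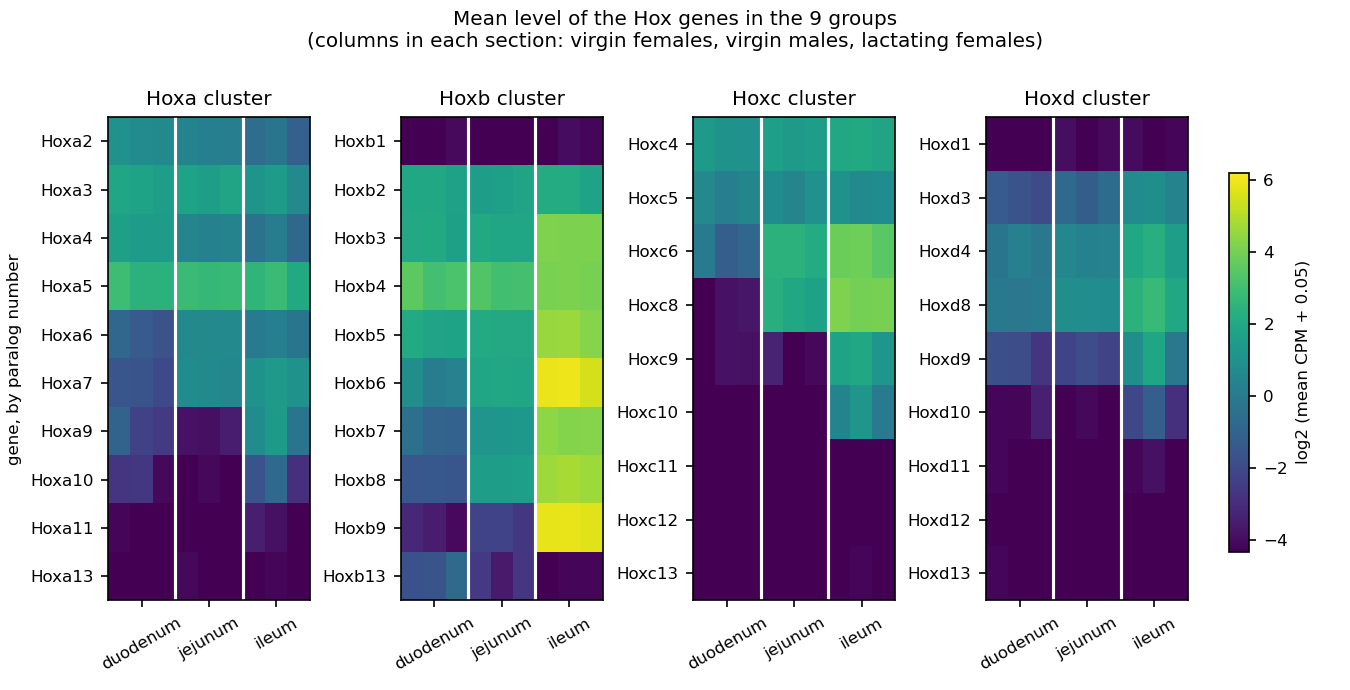
Colour gives log2 of the mean CPM plus 0.05 for 38 of the 39 genes (rows, by cluster and paralog number) in the 9 groups (columns, by section; white lines part the sections). In the ileum columns Hoxb6 and Hoxb9 are brightest of the Hoxb panel and Hoxc6 and Hoxc8 of the Hoxc panel, whereas in the Hoxa panel Hoxa5 is brightest in every section.

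The 4 clusters divided this rise unequally. The summed Hoxa level was 15.3 ± 4.49 CPM (SD, n = 17) in duodenum, 15.8 ± 4.23 (n = 17) in jejunum and 14.7 ± 4.15 (n = 18) in ileum. Hoxb went from 23.5 ± 6.15 over 29.0 ± 7.36 to 218.5 ± 19.2 CPM, and so held 51.9%, 46.7% and 76.3% of all Hox CPM in the 3 sections. Hoxc went from 4.15 ± 1.25 over 13.6 ± 4.49 to 40.4 ± 6.33 CPM, and Hoxd from 2.36 ± 0.485 over 3.74 ± 0.656 to 13.3 ± 5.30 CPM. Pooled over the kinds of animal, the Hoxa totals of the sections thus lay within the spread between libraries. From jejunum to ileum they went from 15.85 to 10.63 CPM in lactating females and from 16.56 to 14.56 in virgin females. In males they went from 14.98 to 18.79 CPM. The ileal ranges were 8.99 to 12.1 CPM in lactating females and 15.8 to 21.7 in males. These sums were not tested. Every ileum library exceeded every duodenum and jejunum library in its Hoxb, Hoxc and Hoxd totals.

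By paralog number, groups 4 and 5 made up most of the duodenal signal, with 26.9 CPM of the 45.4, against 26.8 CPM of jejunal and 55.2 CPM of ileal signal. Groups 6 to 8 went from 4.39 CPM over 22.8 to 139.6 CPM along the gut. Groups 9 and 10 stood at 0.603, 0.394 and 65.7 CPM. Of the ileal 65.7 CPM, Hoxb9 alone held 56.7. Groups 1 to 3 stood at 13.1, 12.1 and 26.3 CPM. From duodenum to jejunum the summed level thus rose in groups 6 to 8 alone. From jejunum to ileum it rose in groups 1 to 3, 4 and 5, and 6 to 8 as well as in 9 and 10. Both steps share the jejunum libraries.

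Per kilobase of exon, the level was highest in the duodenum for Hoxb4 at 3.81 CPM per kb and Hoxa5 at 3.24, followed by Hoxa4 at 1.79 and Hoxb5 at 1.33. In the jejunum Hoxa5 at 3.65 and Hoxb4 at 3.44 still led, now ahead of Hoxc6 at 2.11 and Hoxb6 at 1.89. In the ileum the order was Hoxb6 at 28.0, Hoxb9 at 22.0, Hoxb7 at 12.9, Hoxb8 at 9.88 and Hoxb5 at 8.07 CPM per kb. The first 5 of the ileal list were thus neighbouring genes of 1 cluster.

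The first step, from duodenum to jejunum, was tested with edgeR's quasi-likelihood test and Benjamini-Hochberg adjustment over 15811 genes. In virgin females 14 of the 28 tested Hox genes passed an adjusted p of 0.05, 11 higher and 3 lower in the jejunum. Over all genes tested 42.8% passed, 19.3% as higher and 23.5% as lower, so the share of Hox genes called at all was near the background, and the share called higher was above it. The median log2 difference of the 28 was 0.10, against -0.06 over all genes. In virgin males 9 rose and 2 fell, where 44.4% of all genes were called, 21.2% as higher and 23.2% as lower. In lactating females 11 rose and 2 fell, where 30.7% were called, 12.8% as higher and 17.9% as lower. The genes called the same way in all 3 kinds of animal numbered 10: Hoxa6, Hoxa7, Hoxb6, Hoxb7, Hoxb8, Hoxb9, Hoxc6, Hoxc8 and Hoxd8 as higher, and Hoxa4 as lower. The share of all genes called the same way in all 3 was not computed, so this count has no background beside it. The call of Hoxb9 in virgin females, on 22 jejunal and 9 duodenal reads, was lost without jejunum library 2.

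All 8 members of paralog groups 6, 7 and 8, which are known for patterning of the trunk, rose in virgin females at this step. Hoxb8 ranged from 0.164 to 0.536 CPM in the duodenum of virgin females (median 0.27) and from 1.48 to 5.29 in the jejunum (median 2.64). The groups did not overlap, which was so for 5 of the 28 Hox genes and 16.3% of all genes at this step. The difference was 3.19 ± 0.33 on the log2 scale (SE, edgeR adjusted p = 6.69e-11), and 3.18 ± 0.34 in males and 3.32 ± 0.37 in lactating females.

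Hoxa7 ranged from 0.107 to 0.619 CPM in the duodenum (median 0.278) and from 1.03 to 2.58 in the jejunum (median 1.68), without overlap. It rose by 2.5 ± 0.32 on the log2 scale (edgeR adjusted p = 2.37e-08), and its difference from jejunum to ileum was 0.26 ± 0.27 (edgeR adjusted p = 0.428). In virgin males Hoxa7 was called at the second step as well (log2 difference 0.67 ± 0.27, edgeR adjusted p = 0.0329), a call lost in 5 of 20 other fits: without male jejunum 2 or 6, without male ileum 1 or 4, and with all 54 libraries. In lactating females the second step was 0.53 ± 0.29 (edgeR adjusted p = 0.149).

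Hoxc8, which in the mouse embryo is known from the thoracic region, had 0 reads in the 6 virgin female duodenum libraries. Of the 11 duodenum libraries of the other animals, male 1 and lactating female 4 held 3 reads each and the rest 0. In the jejunum it ranged from 2.56 to 7.57 CPM in virgin females (median 4.83) and from 0.825 to 6.59 in males (median 3.67). The 5 lactating libraries were at 1.75, 1.58, 4.31, 2.85 and 5.31 CPM. No jejunum library was as low as any duodenum library, and the rise was called in all 3 kinds of animal (edgeR adjusted p = 1.73e-13, 4.49e-12 and 7.34e-10). Hoxc6, the next Hox gene on its 3′ side, went from a median of 0.929 CPM (0.249 to 1.52) to 5.43 CPM (2.83 to 8.11) in virgin females, also without overlap (log2 difference 2.53 ± 0.35, edgeR adjusted p = 1.17e-07).

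Hoxd8, which takes part in trunk patterning in the embryo, moved less. It was at 0.652 to 1.32 CPM in the duodenum of virgin females (median 0.79) and at 0.932 to 2.41 in the jejunum (median 1.75), with overlap. The difference was 0.99 ± 0.25 (edgeR adjusted p = 0.00117).

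Against these, Hoxa4, Hoxa9 and Hoxa10 fell at the first step in virgin females. Hoxa4 was at 2.09 to 4.66 CPM in the duodenum (median 2.87) and 0.513 to 2.71 in the jejunum (median 1.19); it fell by 1.19 ± 0.27 on the log2 scale (edgeR adjusted p = 4.08e-04), and was called lower in males and lactating females as well. Hoxa9 rested on 66 reads over the 6 duodenum libraries and 3 over the 6 jejunum libraries of virgin females. It ranged from 0 to 0.826 CPM in the duodenum (median 0.534) and from 0 to 0.0851 in the jejunum (median 0), and was called lower (edgeR adjusted p = 0.0021). In males and lactating females, with 20 and 14 duodenal reads, it was not called (edgeR adjusted p = 0.0786 and 0.364).
Hoxa10 had 15 reads in the 6 duodenum libraries and none in the 6 jejunum libraries, which is at least 4.19-fold lower when the jejunum is set at 3 reads over the group. Of the 15 reads, 9 came from virgin female duodenum 5, and without that library the call was lost and the bound was 1.99-fold. The adjacent Hoxa9 and Hoxa10 were therefore low in the jejunum and higher on either side of it, a course that no Hoxb or Hoxc gene called at both steps had in virgin females.

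**Figure D2:**
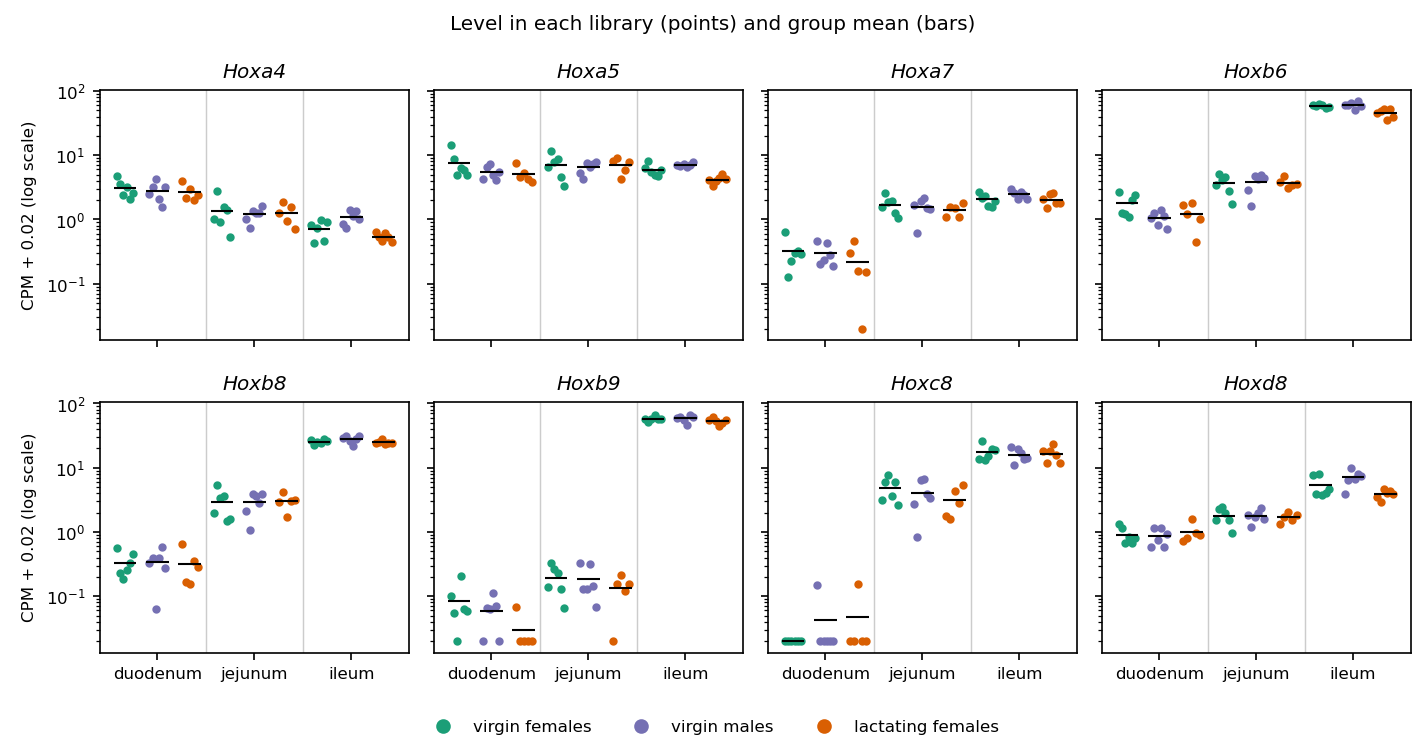
Each point is the CPM plus 0.02 of 1 library (log axis) for 8 Hox genes, by section and coloured by kind of animal; bars are group means. Hoxa4 descends along the gut, Hoxa5 keeps overlapping ranges in virgin females, Hoxa7 and Hoxc8 make their larger step from duodenum to jejunum, and Hoxb6 and Hoxb9 from jejunum to ileum.

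The second step, from jejunum to ileum, moved more of the genes. In virgin females 22 of 28 were called, 19 higher and 3 lower in the ileum, where 53.2% of all genes tested were called, 27.3% as higher and 25.9% as lower. The median log2 difference of the 28 was 1.56, against 0.07 over all genes. In males 20 were called higher and 0 lower, where 58.6% of all genes were called, 29.9% as higher and 28.7% as lower. In lactating females 18 were higher and 5 lower, where 38.7% were called, 18.4% as higher and 20.4% as lower. In all 3 kinds of animal together 17 genes were called higher and 0 lower, without a share over all genes to set beside them. Among the 17 was Hoxa10, whose call in lactating females was lost in 11 of 17 other fits. In virgin females the groups did not overlap for 16 of the 28, against 24.5% of all genes.

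All 8 tested Hoxb genes were called higher in the ileum of virgin females, Hoxb2 through Hoxb9. The call of Hoxb2 (log2 difference 0.61 ± 0.24, edgeR adjusted p = 0.0292) was lost without jejunum library 1, 5 or 6. Hoxb9, the most 5′ gene of the cluster before a long gap, ranged from 0.0466 to 0.311 CPM in the jejunum (median 0.165) and from 51.7 to 66.7 in the ileum (median 57). The groups did not overlap. The difference was 8.30 ± 0.23 on the log2 scale (edgeR adjusted p = 1.65e-32), and 8.41 ± 0.23 in males and 8.78 ± 0.26 in lactating females.

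Hoxb6 went from a jejunal median of 3.77 CPM (1.73 to 5.07) to an ileal median of 59.5 CPM (54 to 61.7), a difference of 4.00 ± 0.22 (edgeR adjusted p = 1.68e-20). Hoxb8 went from 2.64 to 25.4 CPM (22.2 to 27.7), Hoxb7 from 2.18 to 18.4 CPM (16.8 to 37.2) and Hoxb5 from 3.9 to 23.5 CPM (20.8 to 25.8), each comparing medians and each without overlap. The log2 differences were 3.12 ± 0.25 for Hoxb8, 3.27 ± 0.25 for Hoxb7 and 2.45 ± 0.23 for Hoxb5. Toward the 3′ end they were smaller, with 0.73 ± 0.17 for Hoxb4, although Hoxb3 with 2.12 ± 0.20 lay above Hoxb4. The exons of Hoxb3 and Hoxb2 overlap the antisense gene Hoxb3os on the other strand over 52.9% and 27.3% of their length; the counts used were those of the strand of the gene.

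Hoxb13 lies beyond Hoxb9 across a gap in the cluster and is known from the hindgut and tail. It did not pass the filter and was singled out after its values were seen. It held 135 reads in the 17 duodenum libraries, 30 in the 17 jejunum libraries and 2 in the 18 ileum libraries. The level was 0.267 ± 0.218 CPM in virgin female duodenum (SD, n = 6) and 0.569 ± 0.392 in lactating female duodenum (n = 5). Its reads thus declined along the gut while those of Hoxb9, its nearest Hox neighbour, rose. Beyond Hoxb13 lies Ttll6, a tubulin glutamylase gene (chromosome 11, 96133786 to 96165451), which rose from 0.027 ± 0.0479 CPM in the jejunum to 1.74 ± 0.864 CPM in the ileum of virgin females (SD, n = 6, log2 difference 5.86 ± 0.63, edgeR adjusted p = 7.53e-11). Ttll6 was 1 of 10 listed neighbours of the Hox clusters. Their summed level went from 202.9 ± 6.03 to 179.5 ± 7.89 CPM between the same groups. How many of the 10 were called is not given here.

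In the Hoxc cluster 4 of 6 tested genes rose at the second step in virgin females. Hoxc9 went from a median of 0.0294 CPM (0 to 0.128) to 3.33 CPM (2.32 to 4.74), without overlap (log2 difference 5.96 ± 0.41, edgeR adjusted p = 4.41e-15). Hoxc10 had 0 reads in all 17 duodenum and all 17 jejunum libraries. In the ileum it ranged from 0.322 to 3.02 CPM in virgin females (median 0.963), 0.455 to 3.07 in males (median 2.32) and 0.361 to 1.48 in lactating females (median 1.02). Against a jejunum set at 3 reads over the group it was at least 54.9-fold higher in virgin females, 87.7-fold in males and 33.7-fold in lactating females. Hoxc8 rose further, to a median of 17.1 CPM (13.2 to 25.6; log2 difference 1.87 ± 0.32, edgeR adjusted p = 5.05e-06), and Hoxc6 to 14.4 CPM (13.2 to 15.3). Hoxc4 and Hoxc5, at the 3′ end, were not called (log2 differences 0.38 ± 0.20 and 0.27 ± 0.25, edgeR adjusted p = 0.113 and 0.367).

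All 5 tested Hoxd genes were called higher in the ileum of virgin females. Hoxd8 went from a median of 1.75 CPM to 4.36 CPM (3.72 to 7.92), without overlap (log2 difference 1.58 ± 0.23, edgeR adjusted p = 1.28e-07). Hoxd9 ranged from 0 to 0.445 CPM in the jejunum and from 0.36 to 4.9 in the ileum, so that the groups overlapped (log2 difference 3.42 ± 0.53, edgeR adjusted p = 4.93e-07). Hoxd10 had 0 reads in the jejunum of virgin females; its 32 ileal reads made it at least 8.69-fold higher, and 25 of them came from virgin female ileum 3, without which the bound was 2.33-fold.

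In virgin females the Hoxa cluster took the opposite course at its 3′ end. At this second step virgin males had 3 Hoxa genes called higher and 0 lower. Lactating females had 3 higher and 5 lower, Hoxa2 through Hoxa6. Hoxa2, known from hindbrain patterning, went from a median of 2.07 CPM in the duodenum (0.9 to 2.33) over 1.22 (0.699 to 2.05) to 0.562 CPM in the ileum (0.414 to 1.11) of virgin females, and fell at the second step by 1.02 ± 0.29 on the log2 scale (edgeR adjusted p = 0.00282). Hoxa3 fell by 0.68 ± 0.24 (edgeR adjusted p = 0.0144) and Hoxa4 by 0.93 ± 0.29 (edgeR adjusted p = 0.00676). With library totals alone in place of TMM these 3 calls were lost and the split at this step was 21 higher and 0 lower; that of Hoxa4 was also lost without jejunum library 2. Hoxa5, the highest of its cluster in every section, was at medians of 6.03, 7.12 and 5.74 CPM along the gut of virgin females, with overlapping ranges of 4.87 to 14.5, 3.36 to 11.6 and 4.67 to 8.09, and was called at neither step there. In lactating females it fell by 0.75 ± 0.24 from jejunum to ileum (edgeR adjusted p = 0.0115), a call that was lost with library totals alone.
Hoxa9 had its peak in the ileum, at 0.44 to 3.85 CPM (median 0.851) against 0 to 0.0851 in the jejunum (log2 difference 5.78 ± 0.92, edgeR adjusted p = 9.45e-07). Hoxa10, with 43 ileal reads and 0 jejunal ones, was at least 11.7-fold higher in the ileum; 22 of these reads came from virgin female ileum 3, and without it the bound was 6.99-fold.

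**Figure D3:**
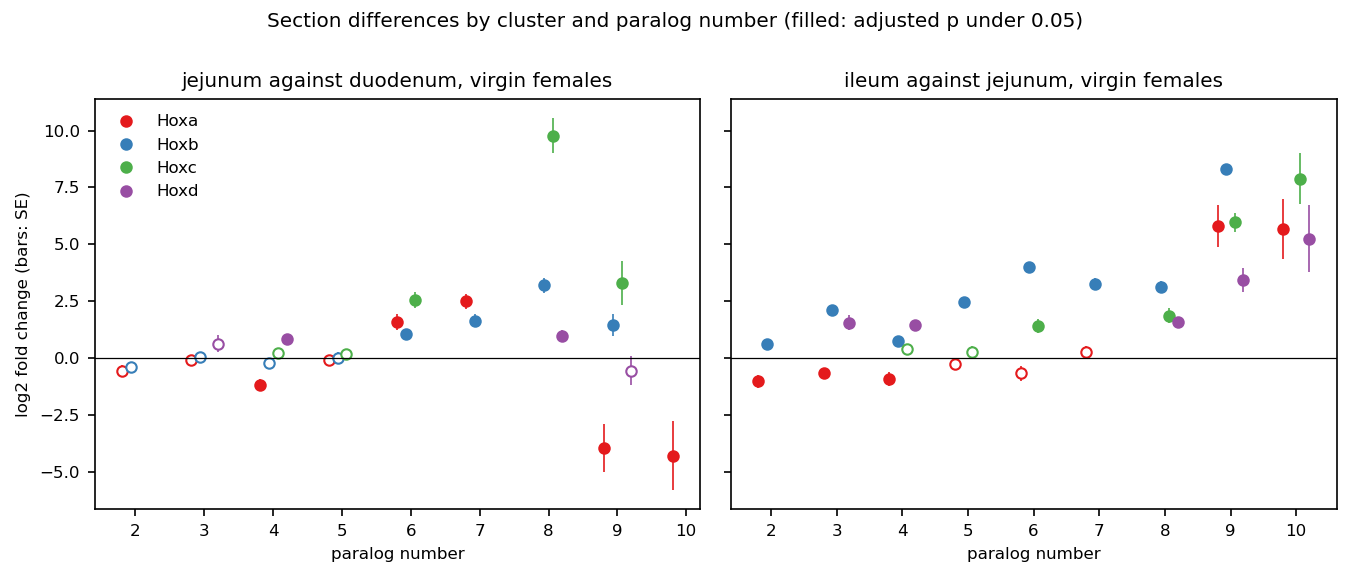
Log2 differences with SE (vertical axis) of up to 27 of the tested Hox genes against paralog number (horizontal axis) in virgin females, for jejunum against duodenum (left) and ileum against jejunum (right), coloured by cluster; filled points passed an adjusted p of 0.05, and genes with 3 or fewer reads in both groups together are not drawn. The left panel rises from number 6 to number 8, with Hoxa9 and Hoxa10 far below 0; on the right every gene numbered 9 or 10 lies above 3.

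Over the whole span, from duodenum to ileum, 20 of the 28 were higher and 3 lower in virgin females (53% of all genes called, 24.1% as higher and 28.8% as lower). Males had 21 higher and 2 lower (60.5%, 28.9% and 31.6%), and lactating females 19 higher and 3 lower (55.3%, 25.1% and 30.2%). In all 3 kinds of animal together 19 were higher and 2, Hoxa2 and Hoxa4, lower, again without a share over all genes. Hoxa4 fell by 2.12 ± 0.28 on the log2 scale in virgin females (edgeR adjusted p = 1.48e-08). Hoxb9 rose by 9.75 ± 0.26 on the same scale (edgeR adjusted p = 1.3e-33).

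The same paralog number stood at very different levels in different clusters of the ileum. In group 9, the mean of virgin females was 57.9 ± 4.90 CPM for Hoxb9, 3.38 ± 0.855 for Hoxc9, 1.85 ± 1.73 for Hoxd9 and 1.62 ± 1.46 for Hoxa9 (SD, n = 6). Per kilobase over the 18 ileum libraries Hoxb9 was at 22.0 and Hoxc9 at 1.29 CPM per kb. Hoxd9 and Hoxa9 overlapped in range in virgin females.

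Markers of other tissue layers moved with the section. From jejunum to ileum in virgin females, 10 of 10 fibroblast markers, 6 of 10 smooth muscle markers and 7 of 10 enteric neuron and glia markers were called higher and 0 lower, and of 9 epithelial markers 3 rose and 3 fell, where 27.3% of all genes rose and 25.9% fell. The summed fibroblast level was 603.7 ± 275 CPM (SD, n = 6) for jejunum against 1236 ± 111.8 for ileum, and that of smooth muscle 4608 ± 2559 against 6730 ± 923.7; no marker of either list was at 0. From duodenum to jejunum 6 of the 10 fibroblast markers fell and 1 rose, and 0 smooth muscle markers were called, where 19.3% of all genes rose and 23.5% fell. The part of these markers in the Hox differences was not tested. In such bulk RNA, fewer cells of a type and less RNA per cell cannot be told apart.

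At the second step 53.2% of all genes were called, 27.3% as higher and 25.9% as lower, and the counts of partners and regulators below are read against these shares. Hox proteins bind DNA together with Pbx and Meis proteins: of 9 such cofactor genes, 3 rose and 2 fell from jejunum to ileum in virgin females, a share near that of all genes. Pbx3 went from 9.24 ± 2.86 to 13.9 ± 1.77 CPM (SD, n = 6, log2 difference 0.59 ± 0.19, edgeR adjusted p = 0.00686), and Pbx4 fell by 0.83 ± 0.24 (edgeR adjusted p = 0.00321). Of the caudal and ParaHox genes, 3 of 6 were tested. Cdx2 rose at the first step, from 140.3 ± 20.6 to 215.3 ± 26.2 CPM (log2 difference 0.62 ± 0.12), and was at 220.5 ± 29.6 in the ileum. Cdx1 rose at the second, from 117.7 ± 15.2 to 218.6 ± 38.0 CPM (log2 difference 0.89 ± 0.11).
Of 16 Polycomb and Trithorax genes, whose products keep Hox clusters silent or active, 3 rose and 8 fell from jejunum to ileum, where 27.3% of all genes rose and 25.9% fell. Cbx8 fell by 1.12 ± 0.13 (edgeR adjusted p = 1.18e-09) and Cbx2 by 0.76 ± 0.12 (edgeR adjusted p = 8.12e-07). Of 14 tested genes of retinoic acid synthesis, breakdown and reception, 2 rose and 4 fell, where 53.2% of all genes were called. Rarb, a retinoic acid receptor gene, rose by 0.71 ± 0.25 (edgeR adjusted p = 0.0169), and Aldh1a3, which encodes a retinal dehydrogenase, fell by 0.55 ± 0.17 (edgeR adjusted p = 0.00539). These lists, like the members, were chosen with earlier results known.

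Between lactating and virgin females no tested Hox gene passed an adjusted p of 0.05. The 28 genes gave 0 calls by edgeR in each of the duodenum, jejunum and ileum, where 0.803%, 0.873% and 0.961% of all genes were called, and DESeq2 also gave 0 in each section. At an unadjusted p of 0.05, edgeR had 4, 1 and 6 of the 28, where 12.0%, 12.0% and 11.8% of all genes passed. The median log2 difference was -0.34 for duodenum, -0.01 for jejunum and -0.37 for ileum, against 0.01 over all genes in each.

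In the ileum all 28 estimates were below 0, between -1.57 and -0.01; over the alternatives, which tested different numbers of genes, 24 to 31 were below 0. Hoxb6 was at 35.8 to 52.4 CPM in lactating females (median 47.2) and at 54 to 61.7 in virgin females (median 59.5). Hoxc6 was at 8.44 to 12.7 (median 11.5) against 13.2 to 15.3 (median 14.4). These 2 were the only Hox genes whose groups did not overlap in the ileum, against 2.32% of all genes, and neither passed the test (log2 differences -0.36 ± 0.19 and -0.35 ± 0.30, edgeR adjusted p = 0.465 and 0.714). The lowest p belonged to Hoxd9, with a median of 0.85 CPM in lactating (0.602 to 1.25) and 1.05 in virgin females (0.36 to 4.9), a log2 difference of -1.07 ± 0.43 (edgeR adjusted p = 0.271). Hoxb9 was at 44.9 to 62.1 CPM against 51.7 to 66.7 (log2 difference -0.11 ± 0.14, edgeR adjusted p = 0.824), and Hoxa5 at 3.32 to 5.09 against 4.67 to 8.09 (-0.50 ± 0.23, edgeR adjusted p = 0.384).
The SEs above come from a fit in which all 9 groups share 1 estimate of the spread per gene. The spread was unequal between sections. In virgin females the summed Hoxb level was 225.6 ± 6.45 CPM in the ileum, 26.8 ± 8.33 in the duodenum and 30.3 ± 8.87 in the jejunum (SD, n = 6). When only the 18 ileum libraries were fitted, Hoxa5 and Hoxb6 were called lower, so the absence of calls in the ileum depends on which libraries are fitted. That fit also redid the filter, the scaling and the adjustment, and the part of the shared spread was not tested. No share over all genes of that fit is set beside these calls.

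**Figure D4:**
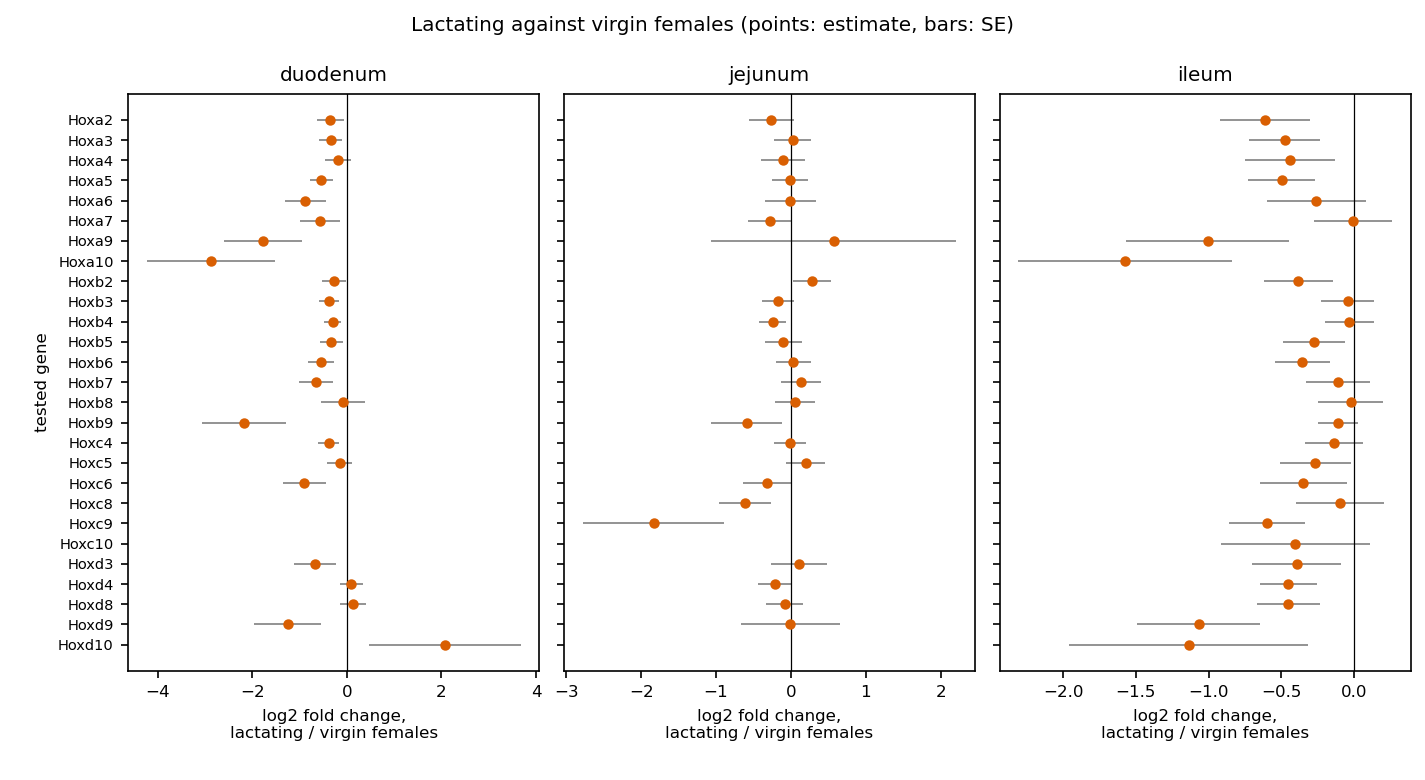
Log2 differences with SE (horizontal axis, lactating against virgin females) of up to 27 of the tested Hox genes (vertical axis) in the 3 sections; genes with 3 or fewer reads in both groups together are not drawn. In the ileum panel every point lies left of 0, and none of the points in any panel passed an adjusted p of 0.05.

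Beside these estimates, the summed level of the enteric neuron and glia markers in the ileum was 74.2 ± 9.88 CPM in lactating and 102.5 ± 14.5 in virgin females (SD, n = 6), with ranges of 64.2 to 83.6 and 83.4 to 122.4. Fibroblast markers were at 1143 ± 114.4 and 1236 ± 111.8 CPM and smooth muscle markers at 6924 ± 887.1 and 6730 ± 923.7. None of the 10 markers of each list was called or was at 0. Their part in the Hox values was not tested.

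The lactation effect was also compared between sections. No Hox gene was called in ileum against jejunum, ileum against duodenum or jejunum against duodenum (0.0949%, 0.171% and 0.0% of all genes called), nor in the test of any section by group interaction (2.96%). At an unadjusted p of 0.05 the 3 differences had 0, 2 and 1 of the 28, where 9.39%, 6.55% and 4.87% of all genes passed. Virgin females and virgin males gave 0 calls in each section as well (0.0632%, 0.0885% and 0.12% of all genes), with 6, 1 and 1 of the 28 at an unadjusted p of 0.05, where 13.2%, 5.09% and 6.24% of all genes passed.

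Within the ileum, some 5′ genes varied more among libraries than others. In virgin females Hoxd9 was at 2.93, 0.92, 4.9, 0.827, 0.36 and 1.19 CPM in libraries 1 to 6, and Hoxa9 at 3.09, 0.874, 3.85, 0.827, 0.44 and 0.668. Libraries 1 and 3 were the high ones for both. In males Hoxd9 was at 0.745, 3.91, 5.32, 3.53, 5.11 and 3.8, and Hoxa9 at 0.579, 2.76, 3.07, 2.95, 3.88 and 2.44, with library 1 alone low. In lactating females Hoxd9 was at 0.956, 0.83, 1.25, 0.602, 0.871 and 0.808, with no high library. Hoxa9 was there at 0.435, 0.277, 1.05, 0.883, 1.39 and 0.808. Hoxb9 was between 44.9 and 66.9 CPM in all 18. Car1, a carbonic anhydrase gene used as a large intestine marker, was at 28.3, 0.69, 84.6, 0.455, 0.44 and 0.334 CPM in virgin females, at 0.496, 63.8, 115, 5.18, 550 and 100 in males, and at 0.435, 42.8, 0.363, 0.161, 0.305 and 1.66 in lactating females. All libraries with Hoxd9 above 2 CPM had Car1 above 5 CPM, and lactating library 2 had Car1 at 42.8 with Hoxd9 at 0.83. Its Hoxa9, at 0.277 CPM, was the lowest of the 18 ileum libraries. Lactating library 5 had Hoxa9 at 1.39 CPM with Car1 at 0.305. Aqp8, another large intestine marker, was at most 0.369 CPM in any ileum library. The part of Car1-bearing tissue in these Hox values was not tested.

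**Figure D5:**
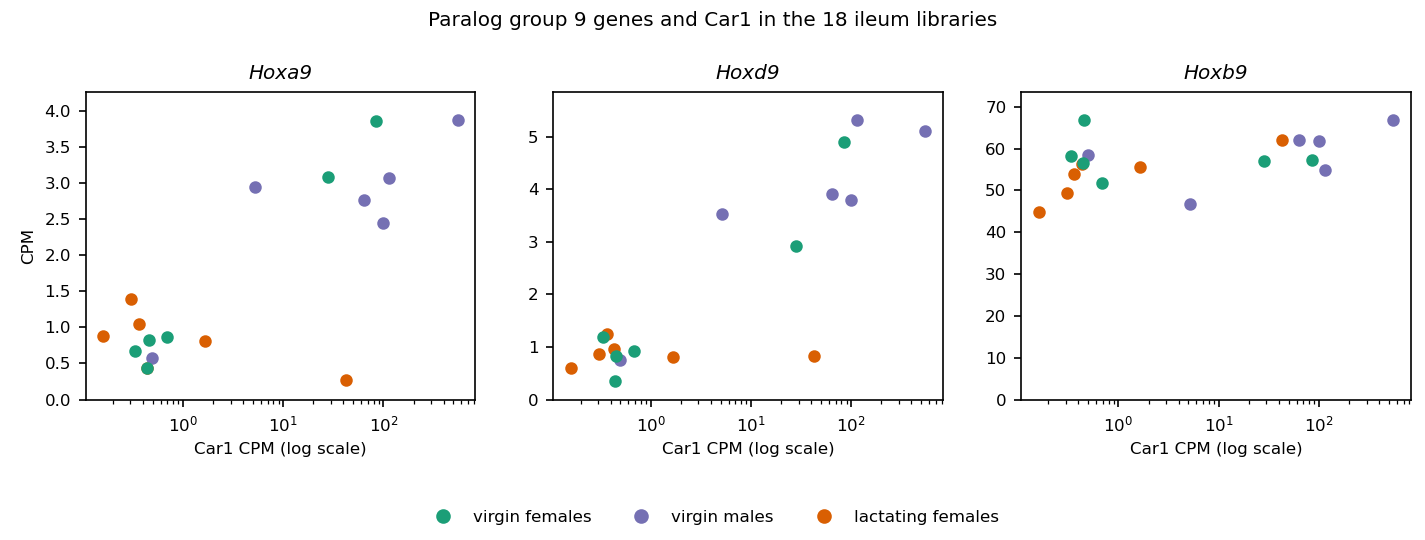
CPM of 3 group 9 genes (vertical axes) against CPM of Car1 (horizontal log axis) in the 18 ileum libraries, coloured by kind of animal. For Hoxa9 and Hoxd9 the high points lie to the right, with 1 lactating library at high Car1 and low level, while Hoxb9 spans 44.9 to 66.9 CPM along the whole axis.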

How the data were processed

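Gene counts from 54 mouse small intestine libraries were used. The authors deposited 1 count table per library, with read counts for the unstranded, forward and reverse setting; the reverse column was used, since it held 97.9% to 98.6% of stranded reads and the kit is directional per the labels' protocols, and the 2 other columns were not. Per the submitters' processing notes, which give no roles, FastQC 0.11.5, STAR 2.7.7a, DESeq2 1.34.0 and the build GRCm38 were named; the annotation is not given in the sources used here. Reads of no gene (20.0% to 31.7% of a library's reads) stayed out of library sizes.

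Computed here: in edgeR 4.0.16 (R 4.3.3), genes with at least 10 reads in enough libraries by group and 15 in all were kept (15811 genes), scaled by TMM and fitted with 1 mean for each of the 9 groups (52 libraries, no replicate block); contrasts used the quasi-likelihood test with Benjamini-Hochberg adjustment over all genes, threshold 0.05. Fold bounds set a group without reads at 3 reads over the group. DESeq2 1.42.0 was an alternative. The procedure was tested on simulated data. Intervals and floors cover counting error only. Genes named by rule were, per cluster, the largest called rise at each step, the largest called falls and the highest mean level; others, such as Hoxa4, Hoxb13 and Hoxd9, were singled out after their values were seen. Members and lists were chosen with earlier results of these data known. Coordinates and lengths came from GENCODE annotation of GRCm38, and promoters from RefSeq (GRCm38.p6). No 2 libraries of the same group agreed within sampling noise, and pairs from different groups were not compared. Some items, among them 1 member left out of the figures, are not reported here.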

Additional observations from a re-analysis of the deposited data

Results flagged for a closer look

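Of the 97 groups of 5 or 6 libraries of the named Hox genes, 16 held a library whose gap to its nearest neighbour was large for the range of its group; chance flags about 1 in 20 groups. Of these, 8 were a group with reads in 1 library alone, and there the flag rests on 1 to 3 reads. These were Hoxa10 in lactating duodenum 6 (0.0434 CPM, 1 read) and male jejunum 6 (0.0488 CPM, 1 read), Hoxb9 in lactating duodenum 1 (0.0477 CPM, 1 read), Hoxc8 in lactating duodenum 4 (0.136 CPM, 3 reads) and male duodenum 1 (0.132 CPM, 3 reads), and Hoxd10 in virgin female duodenum 5 (0.0435 CPM, 1 read), male duodenum 4 (0.0459 CPM, 1 read) and male jejunum 3 (0.0555 CPM, 1 read).

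Among the rest, the virgin female duodenum 5 library was high for Hoxa10 at 0.391 CPM, with the others at 0 to 0.123, and lactating duodenum 6 was high for Hoxa9 at 0.521 CPM, with the others at 0 to 0.0477. Hoxd10 was high in lactating duodenum 5 at 0.187 CPM (others 0 to 0.0434) and in virgin female ileum 3 at 0.8999 CPM (others 0 to 0.277). Hoxa2 was high in lactating jejunum 2 at 1.63 CPM (others 0.869 to 1.07) and low in virgin female duodenum 3 at 0.9002 CPM (others 2.03 to 2.33). Hoxb8 was high in lactating ileum 3 at 28.4 CPM (others 23.4 to 25), and Hoxd8 in lactating duodenum 4 at 1.59 CPM (others 0.715 to 0.935).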

How the results depend on the processing

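Of 171 calls of single Hox genes between sections, 154 kept their call in every alternative that tested them, 17 lost it in at least 1, and 0 reversed; 74 of 3309 single-gene fits lost the call. Among the calls lost most often were Hoxa10 (lactating, second step, 11), Hoxc4 (lactating, first step, 10), Hoxa6 (lactating, second step, 9) and Hoxd8 (lactating, first step, 6). The counts of called genes stayed within 1.5 times the reported count except for lactation in the ileum. There, fitting the libraries of that section alone gave 2 genes lower in place of 0. These were Hoxa5 by -0.52 (edgeR adjusted p = 0.0333) and Hoxb6 by -0.38 (edgeR adjusted p = 0.0322). No share over all genes of that fit is set beside these 2 calls. Fewer libraries, all of them from the ileum, then set the spread, and the filter, scaling and adjustment were redone. Leaving out 1 library at a time gave 13 to 15 calls for the first and 21 to 23 for the second step in virgin females, and 0 for lactation, sex and interaction. With the replicate block the calls in virgin females were 14, 22 and 23 for jejunum against duodenum, ileum against jejunum and ileum against duodenum, and other section counts moved by at most 1. Deviations of same-numbered libraries from their group means correlated at -0.22 to 0.20 between sections (median 0.05) and at -0.56 to 0.61 between groups (median 0.02). Libraries with different numbers were not correlated for comparison, so these values cannot decide whether the numbers pair libraries. The pairing rests on a number only. The interaction was not run in DESeq2. Hoxa10 and Hoxd10, with at most 15 reads in any group above the ileum, are limited by depth.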
